A study of Mus musculus with 6 samples.

Results

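Glycolysis breaks glucose down to pyruvate in the cytosol and yields ATP without oxygen. Pyruvate is then either reduced to lactate by lactate dehydrogenase and exported, or carried into mitochondria and oxidised by the pyruvate dehydrogenase complex. Pluripotent stem cells depend heavily on glycolysis, whereas cardiomyocytes, as they mature, come to rely mainly on oxidation in mitochondria. Most steps are shared among isoenzymes whose genes differ in their tissues, and many of these genes are induced in low oxygen by HIF, a heterodimeric transcription factor that binds the hypoxia response element. A total of 34 genes of this pathway were followed here out of 25701 in the table: 4 carriers of glucose or lactate, 9 genes of upper glycolysis, 9 of lower glycolysis, 2 lactate dehydrogenases, 4 PFKFB enzymes and 6 genes of pyruvate dehydrogenase and its kinases. They were chosen by gene symbol, as a list of the pathway's members. No rule on their values was used, but earlier results of these data were known.

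PolyA RNA was sequenced from cardiac progenitor (CP) cells derived from 46C, a line of mouse embryonic stem cells (mESCs) that carries a green fluorescent protein reporter at Sox1. The 3 libraries labelled Zhx1-KO came from 46C cells edited with CRISPR/Cas9, with guide RNAs at the start and at the stop of Zhx1, the gene of a zinc finger protein with homeodomains, and the 3 labelled 46C-Ctrl from control 46C cells. All were differentiated towards cardiomyocytes with ascorbic acid, BMP4, Activin A, VEGF and FGFs and taken at the CP stage. The labels give neither the day of harvest nor the number of edited clones or separate differentiations, so the p-values rest on the scatter among the 3 libraries of a group, which may be technical. Values are normalized counts, gene counts that had been divided by a factor for each library, and depth as recovered from them lay between 13769967 and 15940874 reads. A gene was called when its adjusted p over the 15372 genes tested was under 0.05 in limma.

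Zhx1 itself did not separate the groups. It had 225, 325 and 308 normalized counts in Zhx1-KO 1, 2 and 3, against 460.3, 181 and 457 in 46C-Ctrl 1, 2 and 3 (log2 fold change -0.25, adjusted p = 0.579, and -0.70 with an adjusted p of 0.0113 without 46C-Ctrl 2), so the groups are named below as labelled. The library 46C-Ctrl 2 stood apart, with 2.77% of its counts on mitochondrial genes, against 1.72 to 1.87% in the other libraries. Its value was more than 1.5 times under the mean of 46C-Ctrl 1 and 3 for 3 of the 30 glycolysis and transport genes with a 46C-Ctrl mean of at least 100 (Gapdh, Slc16a3 and Pfkm), while 3.51% of all 10580 such genes departed that far in either direction. The fold changes of these 3 genes are given with and without it.

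More of the pathway was higher than lower in Zhx1-KO cells. Of the 34 genes, all of which passed the filter on low values, 23 rose, 5 fell and 6 did not pass the test, where 52.0% of all genes tested were called, 25.6% as higher and 26.4% as lower. The groups did not overlap in 28 of the 34, against 60.8% of the genes tested. The median log2 fold change of the 34 was 0.46, and that of all genes tested was 0.01. The genes that fell were Slc2a3, Slc16a1, Hk2, Pfkfb2 and Pdk4, and those that did not pass were Tpi1, Gapdh, Ldhb, Pfkfb1, Pfkfb4 and Pdhb. Several of the genes, such as Gapdh, Ldha and Pgam1, have processed copies elsewhere in the mouse genome, and how reads shared with them were counted is not given. The 34 genes together took 2.87 ± 0.0607% of all normalized counts in Zhx1-KO and 2.37 ± 0.132% in 46C-Ctrl (SD, n = 3 each), and without Gapdh 2.61 ± 0.0402% in Zhx1-KO and 2.12 ± 0.0122% in 46C-Ctrl. Without 46C-Ctrl 2, 22 of the genes rose and 5 fell. In these bulk libraries, more RNA per cell and a larger share of cells that express a gene cannot be told apart.

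**Figure D1:**
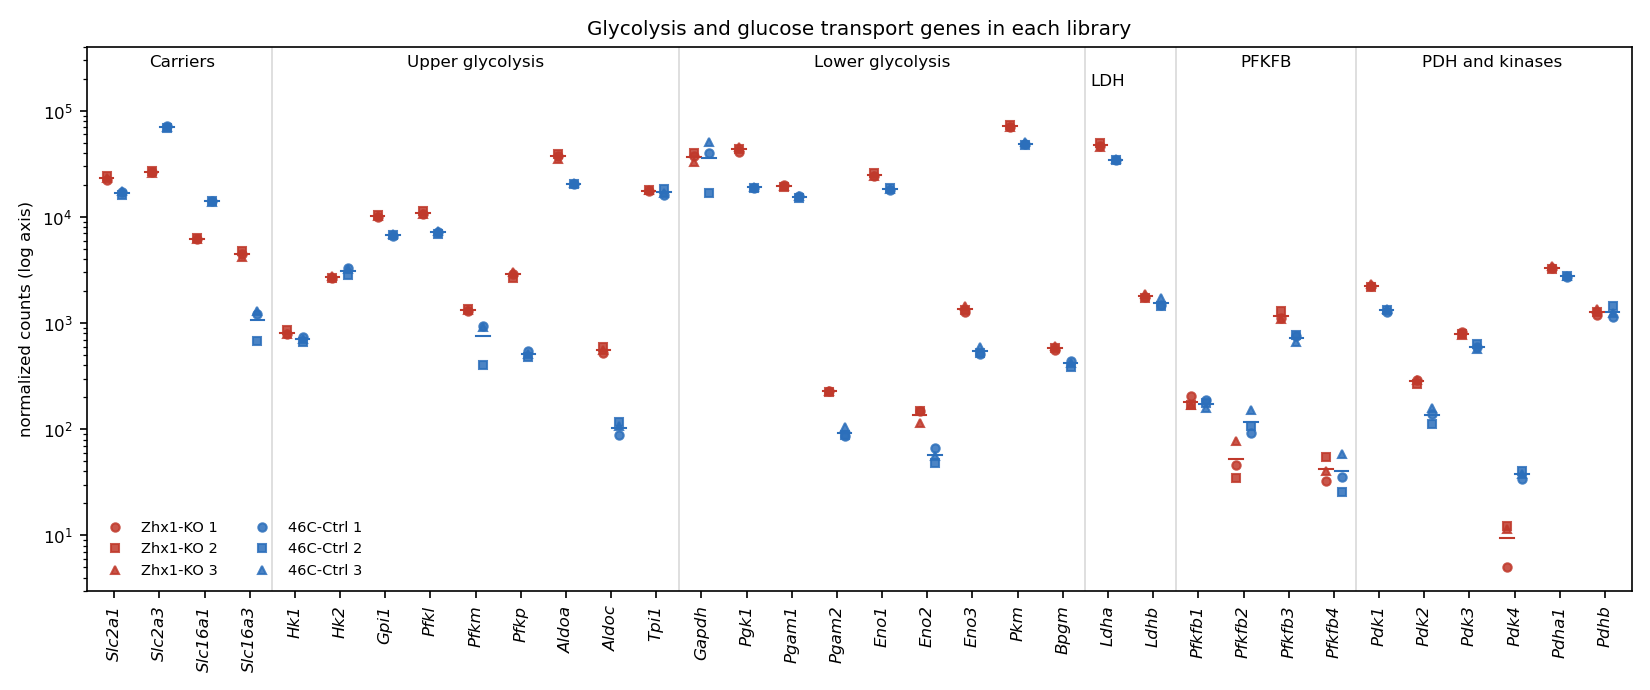
Normalized counts (log axis) of the 34 genes in pathway order, with the 3 Zhx1-KO libraries in red left of the 3 46C-Ctrl libraries in blue, 1 symbol per replicate number and a line at each group mean. Slc2a3 and Slc16a1 sat lower in Zhx1-KO, Pfkp, Aldoc and Slc16a3 well above 46C-Ctrl, and 46C-Ctrl 2 lay far below its group for Gapdh, Pfkm and Slc16a3.

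The sequence before the start of 5 genes is shown because these genes span the responses. Pfkp had a large rise, Pgk1, Ldha and Slc16a3 had rises, and Slc16a1 had a fall. They also differ in the letters ACGTG, a form of the core of the hypoxia response element. The form GCGTG was neither marked nor counted, so the core below means ACGTG only. Capitals mark ACGTG on the strand of the gene or CACGT, the same core read on the other strand. The stretches are exon-free parts of the 250 bases before a RefSeq start in GRCm38, given 5′ to 3′ on the strand of the gene: Pfkp at chr13:6648778-6649021 (minus strand), Pgk1 at chrX:106186850-106187099, Ldha at chr7:46845554-46845803, Slc16a3 at chr11:120948817-120949052 and Slc16a1 at chr3:104638414-104638663 (the last 4 on the plus strand).
Pfkp: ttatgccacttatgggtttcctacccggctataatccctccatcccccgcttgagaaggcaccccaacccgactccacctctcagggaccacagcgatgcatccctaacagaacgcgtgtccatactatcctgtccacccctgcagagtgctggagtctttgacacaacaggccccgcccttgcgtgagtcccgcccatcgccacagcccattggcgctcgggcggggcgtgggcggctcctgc
Pgk1: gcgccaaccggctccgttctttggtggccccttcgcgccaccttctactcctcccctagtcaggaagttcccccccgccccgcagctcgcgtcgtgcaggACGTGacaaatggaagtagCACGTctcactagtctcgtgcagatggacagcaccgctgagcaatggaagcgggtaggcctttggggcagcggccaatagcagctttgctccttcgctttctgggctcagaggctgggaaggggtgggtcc
Ldha: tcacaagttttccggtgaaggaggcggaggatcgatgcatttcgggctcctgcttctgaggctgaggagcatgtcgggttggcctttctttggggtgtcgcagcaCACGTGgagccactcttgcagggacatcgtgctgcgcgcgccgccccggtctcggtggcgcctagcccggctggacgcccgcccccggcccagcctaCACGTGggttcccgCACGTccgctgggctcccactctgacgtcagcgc
Slc16a3: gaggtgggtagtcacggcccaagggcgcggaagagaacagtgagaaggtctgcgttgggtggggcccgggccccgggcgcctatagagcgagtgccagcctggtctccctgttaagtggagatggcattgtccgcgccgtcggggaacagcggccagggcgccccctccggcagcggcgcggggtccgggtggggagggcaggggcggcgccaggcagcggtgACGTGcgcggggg
Slc16a1: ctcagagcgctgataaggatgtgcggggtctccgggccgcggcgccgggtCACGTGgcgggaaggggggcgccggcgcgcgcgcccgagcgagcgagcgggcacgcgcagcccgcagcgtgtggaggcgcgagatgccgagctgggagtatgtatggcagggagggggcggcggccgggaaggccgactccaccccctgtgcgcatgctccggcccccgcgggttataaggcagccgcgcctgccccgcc
Ldha held 5 matches here, counted on both strands, at -145, -144, -48, -47 and -34 from its start, and 0 in the window of its other RefSeq start. The pairs at -145 and at -48 are each 1 E-box, CACGTG, which holds the core on both strands and is also the site of Myc and of the glucose-sensing MondoA and ChREBP factors. Pgk1 had matches at -150 and -131 and Slc16a3 at -27, and Slc16a1 had 1 E-box at -200. The stretch of Pfkp had no ACGTG on either strand, though it holds GCGTG. Of the 33 genes with a window (Slc2a3 had none here), 15 held the core in at least 1 of their windows (45.5%), against 24.6% of the 11121 tested genes with a window and 18.5% of all 27025 genes. The 33 genes have 52 windows, 36.5% of which held it, against 16.6% of all 32851 windows. These counts use the whole 250 bases, exons included, and within the longest exon-free stretch of a window 12 of the 33 genes held the core. The share of all genes in such stretches was not computed, so the 12 have no background here. Over the whole 250 bases it was found in 11 of the 23 genes that rose, in 3 of the 4 that fell and in 1 of the 6 that did not pass. Over all tested genes the share was 24.9% among those that rose, 25.2% among those that fell and 24.1% among the rest.

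Transcripts of the main glucose carriers moved in opposite directions. Slc2a3 encodes GLUT3, the high-affinity glucose transporter of neurons and of early embryos, and lies on chromosome 6 (chr6:122727809-122801640). It had 26383, 26932 and 25908 normalized counts in Zhx1-KO 1, 2 and 3, against 71951, 69086 and 70803 in 46C-Ctrl 1, 2 and 3. The groups were far apart and tight, with a log2 fold change of -1.42 ± 0.04 (its standard error, with adjusted p = 6.06e-07). Slc2a1, which encodes the widely expressed GLUT1, rose instead, with 22357.5, 24279 and 23371 in Zhx1-KO, against 17082, 16119 and 17563 in 46C-Ctrl (log2 fold change 0.46, adjusted p = 0.000238), although quantile normalization lowered this change to 0.26. Within a library, Slc2a3 had 1.13 ± 0.0411 times the counts of Slc2a1 in Zhx1-KO and 4.18 ± 0.131 times in 46C-Ctrl (SD, n = 3 each). Per kb of spliced transcript, Slc2a3 made up 48.2 ± 0.896% of the pair in Zhx1-KO and 77.5 ± 0.553% in 46C-Ctrl.

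The monocarboxylate transporters, which move lactate and pyruvate across the plasma membrane with protons, were likewise split. Slc16a1 encodes MCT1, found in most tissues and used for both import and export. It had 6227, 6316 and 6172 normalized counts in Zhx1-KO 1, 2 and 3, against 14137, 14301 and 13819 in 46C-Ctrl, a log2 fold change of -1.17 ± 0.04 (its standard error, with adjusted p = 8.55e-07). Slc16a3 encodes MCT4, the lactate exporter of strongly glycolytic cells. Its values were 4469, 4739 and 4201 in Zhx1-KO 1, 2 and 3, against 1229.8, 685 and 1297 in 46C-Ctrl 1, 2 and 3 (log2 fold change 2.11 ± 0.22 by its standard error, adjusted p = 0.000154). Every Zhx1-KO library was above every 46C-Ctrl library, and without the low 46C-Ctrl 2 the log2 fold change was 1.82 (adjusted p = 4.43e-06). The Slc16a3 to Slc16a1 ratio was 0.716 ± 0.0348 in Zhx1-KO and 0.0763 ± 0.0248 in 46C-Ctrl, with a mean of 0.0904 in 46C-Ctrl 1 and 3 alone. Per kb, Slc16a3 was the larger of the pair in Zhx1-KO, at 57 ± 1.19% of their sum, and the smaller in 46C-Ctrl, at 12.3 ± 3.61% (13.9 and 14.8% in 46C-Ctrl 1 and 3). Bsg, which encodes basigin, the chaperone that brings both carriers to the membrane and was picked for that role after its values were seen, averaged 12607 ± 214 in Zhx1-KO and 11382 ± 404 in 46C-Ctrl (log2 fold change 0.15, adjusted p = 0.0242).

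Upper glycolysis traps glucose as its phosphate and splits it into triose phosphates, at the cost of ATP. Of its 9 genes 7 rose, 1 fell and 1 did not pass. The hexokinases, which phosphorylate glucose, moved little. Hk2, the regulated hexokinase of muscle and tumours, averaged 2709 ± 55.8 normalized counts in Zhx1-KO and 3123 ± 267 in 46C-Ctrl (log2 fold change -0.20, adjusted p = 0.0377), and Hk1, the general form, 810.5 ± 36.5 in Zhx1-KO and 706 ± 41.2 in 46C-Ctrl (log2 fold change 0.20, adjusted p = 0.0448). Both calls lay near the threshold, and the highest adjusted p under an alternative was 0.256 for Hk2, with quantile normalization, and 0.141 for Hk1, without Zhx1-KO 2. Gpi1, which isomerises glucose 6-phosphate, rose to 10147 ± 252 in Zhx1-KO, against 6771 ± 139.9 in 46C-Ctrl, a log2 fold change of 0.58 (adjusted p = 2.63e-05).

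Phosphofructokinase catalyses the committed step, as a tetramer of liver (Pfkl), muscle (Pfkm) and platelet (Pfkp) type subunits. Pfkp, on chromosome 13 (chr13:6579768-6648777), showed, with Aldoc, the largest change of the 34 genes, and without 46C-Ctrl 2 the log2 fold change was 2.45 for Pfkp and 2.52 for Aldoc. Its normalized counts were 2933, 2688 and 3032 in Zhx1-KO 1, 2 and 3, against 545, 481 and 507 in 46C-Ctrl 1, 2 and 3, a log2 fold change of 2.49 ± 0.07 (its standard error, with adjusted p = 4.33e-07), or 5.64 times the 46C-Ctrl mean. The spread within either group was small beside this difference. Pfkl, the most abundant of the 3 in counts, averaged 10882 ± 457 in Zhx1-KO and 7189 ± 257 in 46C-Ctrl (log2 fold change 0.60, adjusted p = 5.11e-05), so that Pfkp had 0.266 ± 0.0264 times the counts of Pfkl in Zhx1-KO and 0.0711 ± 0.00315 times in 46C-Ctrl. Per kb, Pfkp was 22.5 ± 1.75% of the sum of Pfkp and Pfkl in Zhx1-KO and 7.21 ± 0.296% in 46C-Ctrl. Pfkm had 1305, 1369 and 1318 in Zhx1-KO 1, 2 and 3, against 949, 405 and 917 in 46C-Ctrl 1, 2 and 3 (log2 fold change 0.91 ± 0.29 by its standard error, adjusted p = 0.0328). The size of the Pfkm change rests on 46C-Ctrl 2, without which it was 0.51 (adjusted p = 0.000449), and its call ended when any 1 Zhx1-KO library was left out (adjusted p = 0.0713 to 0.0824). Its ratio to Pfkl overlapped between the groups, at 0.122 ± 0.00201 in Zhx1-KO and 0.104 ± 0.0397 in 46C-Ctrl, but this overlap rests on 46C-Ctrl 2. Without that library the ratio was 0.12 to 0.124 in Zhx1-KO, just under the 0.124 to 0.13 of 46C-Ctrl 1 and 3.

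Aldolase then cleaves fructose 1,6-bisphosphate. Aldoa, the muscle and general form, averaged 37541.5 ± 2325 in Zhx1-KO and 20587 ± 298 in 46C-Ctrl (log2 fold change 0.86, adjusted p = 1.36e-05). Aldoc, the brain form, is scarce beside it and rose more. Its normalized counts were 518, 598 and 562 in Zhx1-KO 1, 2 and 3, against 87.8, 117 and 107 in 46C-Ctrl 1, 2 and 3, with no overlap and a log2 fold change of 2.43 ± 0.13 (its standard error, with adjusted p = 6.46e-06). Per kb, Aldoc came to 0.979 ± 0.0789% of the aldolase pair in Zhx1-KO and 0.333 ± 0.049% in 46C-Ctrl, so Aldoa made up nearly all of it in each group. Tpi1, triose phosphate isomerase, averaged 17754 ± 267 in Zhx1-KO and 17052 ± 1033 in 46C-Ctrl and did not pass (log2 fold change 0.06, adjusted p = 0.378).

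Lower glycolysis oxidises the triose phosphates and returns ATP. Of its 9 genes 8 rose and none fell, leaving only Gapdh. Gapdh, glyceraldehyde 3-phosphate dehydrogenase, had 37371, 39746 and 33249.7 normalized counts in Zhx1-KO 1, 2 and 3, against 40177, 16847 and 51055 in 46C-Ctrl 1, 2 and 3. The 46C-Ctrl values spanned those of Zhx1-KO (log2 fold change 0.17 ± 0.36 by its standard error, adjusted p = 0.716). Its direction turned without 46C-Ctrl 2, to -0.30 with an adjusted p of 0.0598. Many assays use this gene or its protein as a constant reference, and the study used it as the loading control of its western blots.

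Pgk1, the phosphoglycerate kinase that makes the ATP of this stage, is X-linked (chrX:106187100-106203699). It had 40749, 43935 and 45354.5 normalized counts in Zhx1-KO 1, 2 and 3, against 18793, 18925 and 19226 in 46C-Ctrl 1, 2 and 3, with a log2 fold change of 1.19 ± 0.05 (its standard error, with adjusted p = 2.35e-06). Its change was larger than those of Pgam1, Eno1 and Pkm, the other abundant genes that rose here. Pgam1, the general phosphoglycerate mutase, averaged 19631 ± 391 in Zhx1-KO and 15502 ± 418 in 46C-Ctrl (log2 fold change 0.34, and 0.18 with quantile normalization, adjusted p = 0.000405). Pgam2, the muscle form, had 231, 224 and 228 in Zhx1-KO 1, 2 and 3, against 85.8, 88 and 105 in 46C-Ctrl 1, 2 and 3 (log2 fold change 1.29 ± 0.13 by its standard error, adjusted p = 0.00013). Bpgm makes and removes 2,3-bisphosphoglycerate, best known from erythrocytes. It averaged 586 ± 25.2 in Zhx1-KO and 419 ± 26.8 in 46C-Ctrl (log2 fold change 0.48, adjusted p = 0.0015), while the tested erythroid globin genes Hba-x and Hbb-bh1 were lower. The 6 erythroid markers listed, these 2 among them, had summed counts of 101.1 to 119.9 in Zhx1-KO and 337 to 421 in 46C-Ctrl.

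Enolase makes phosphoenolpyruvate. Eno1, the general form, averaged 24816 ± 996 in Zhx1-KO and 18321 ± 575 in 46C-Ctrl (log2 fold change 0.44, adjusted p = 0.00022). Its level is uncertain, because reads can be split with Eno1b, a near-identical copy that took 69.4% of their summed counts in Zhx1-KO and 69.1% in 46C-Ctrl, and the sum of both gave a log2 fold change of 0.45. Eno2, the neuronal enolase, had 148, 148 and 114 in Zhx1-KO 1, 2 and 3, against 67.3, 47.6 and 55.9 in 46C-Ctrl 1, 2 and 3 (log2 fold change 1.25 ± 0.20 by its standard error, adjusted p = 0.00126). Eno3 is the enolase of skeletal and heart muscle. Its counts were 1261, 1339.9 and 1439 in Zhx1-KO 1, 2 and 3, against 513, 522 and 596 in 46C-Ctrl 1, 2 and 3 (log2 fold change 1.31 ± 0.08 by its standard error, adjusted p = 1.34e-05). Eno3 had 0.0543 ± 0.0045 times the counts of Eno1 in Zhx1-KO and 0.0297 ± 0.00262 times in 46C-Ctrl. Pkm, pyruvate kinase, was the most abundant of the 34 genes in Zhx1-KO, at 71972 ± 1639, against 49089 ± 1601 in 46C-Ctrl (log2 fold change 0.55, adjusted p = 5.99e-05), and these gene counts do not separate its M1 and M2 isoforms.

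The genes that share a step differed between the groups in their proportions within a library. Of the 10 ratios compared, 9 did not overlap between the groups, the exception being Pfkm to Pfkl, and these are descriptions with no test. The share of other gene pairs without overlap was not computed, and 60.8% of the single genes tested did not overlap. Without 46C-Ctrl 2, which was taken out after its values were seen, 10 of the 10 did not overlap. Groups of fewer libraries separate more easily. The shares of Aldoc, Eno2, Eno3, Pgam2, Pfkp and Slc16a3 beside the other gene of their step were larger in Zhx1-KO, and those of Slc2a3, Hk2 and Ldhb smaller. The Pgam2 to Pgam1 ratio was 0.0116 ± 9.14e-05 in Zhx1-KO and 0.00601 ± 0.000671 in 46C-Ctrl, and the Hk2 to Hk1 ratio 3.35 ± 0.19 in Zhx1-KO and 4.42 ± 0.181 in 46C-Ctrl.

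**Figure D2:**
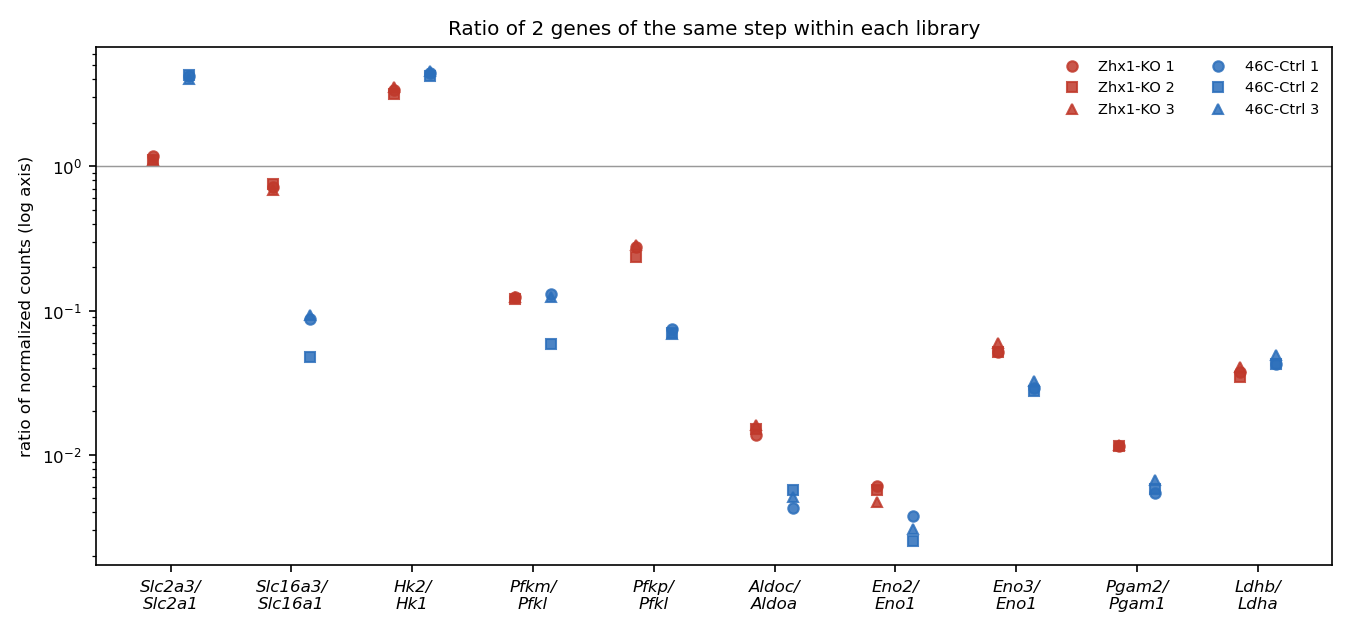
Ratio of the normalized counts of 2 genes of the same step (log axis) in each library, with Zhx1-KO in red left of 46C-Ctrl in blue and 1 symbol per replicate number. The Slc16a3 to Slc16a1 ratio was 0.681 to 0.75 in Zhx1-KO and 0.0479 to 0.0939 in 46C-Ctrl, and only Pfkm to Pfkl overlapped, through 46C-Ctrl 2.

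Lactate dehydrogenase interconverts pyruvate and lactate. Ldha encodes the M subunit, which predominates in glycolytic tissue. It averaged 47548 ± 1612 normalized counts in Zhx1-KO and 34797 ± 239 in 46C-Ctrl, with no overlap (log2 fold change 0.45, adjusted p = 0.000125). Ldhb, the H subunit of heart, averaged 1783 ± 73.4 in Zhx1-KO and 1562 ± 151 in 46C-Ctrl and did not pass (log2 fold change 0.19, adjusted p = 0.0645). It passed when 46C-Ctrl 3, its highest control, was left out (adjusted p = 0.0125) and with quantile normalization (adjusted p = 0.0126).

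The PFKFB enzymes make and remove fructose 2,6-bisphosphate, the strongest activator of phosphofructokinase. Pfkfb3, the form with the highest kinase activity, averaged 1178 ± 118 in Zhx1-KO and 729.8 ± 55.3 in 46C-Ctrl (log2 fold change 0.69, adjusted p = 0.000516). Pfkfb2, the heart form, had 46.4, 34.4 and 77.5 normalized counts in Zhx1-KO 1, 2 and 3, against 91.7, 108 and 152 in 46C-Ctrl 1, 2 and 3. The groups did not overlap but were wide (log2 fold change -1.18 ± 0.32 by its standard error, adjusted p = 0.0171), and without 46C-Ctrl 3 the adjusted p was 0.0582. Pfkfb1, the liver and muscle form, averaged 182 ± 19.8 in Zhx1-KO and 174 ± 14.1 in 46C-Ctrl (adjusted p = 0.726), and Pfkfb4 42.4 ± 11.3 in Zhx1-KO and 40 ± 17.1 in 46C-Ctrl (adjusted p = 0.779). Neither passed the test, and the standard error of the Pfkfb4 change was 0.35 on the log2 scale.

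At the gate to mitochondrial oxidation, 3 of the 4 kinases that switch off pyruvate dehydrogenase rose and 1 fell, and 1 of the 2 subunit genes of the enzyme rose. Pdk1, the kinase induced by HIF in low oxygen, averaged 2255 ± 74.9 in Zhx1-KO and 1323 ± 33.1 in 46C-Ctrl (log2 fold change 0.77, adjusted p = 1.68e-05). Pdk2, the most widely expressed kinase, averaged 282 ± 14.9 in Zhx1-KO and 137 ± 22.7 in 46C-Ctrl (log2 fold change 1.05, adjusted p = 0.000604), and Pdk3 791 ± 26.7 in Zhx1-KO and 598 ± 32.2 in 46C-Ctrl (log2 fold change 0.40, adjusted p = 0.00179). Pdk4, the kinase of fasting and of fatty acid use in heart and muscle, went the other way. Its normalized counts were 5.04, 12.1 and 11.4 in Zhx1-KO 1, 2 and 3, against 34.1, 40.4 and 38 in 46C-Ctrl 1, 2 and 3 (log2 fold change -1.95 ± 0.39 by its standard error, adjusted p = 0.00417). It passed the filter on low values through its 46C-Ctrl level. Of the subunits of the enzyme's E1 component, Pdha1 averaged 3320.3 ± 139 in Zhx1-KO and 2756 ± 27 in 46C-Ctrl (log2 fold change 0.27, adjusted p = 0.00235), and Pdhb 1270.3 ± 77.1 in Zhx1-KO and 1271 ± 155 in 46C-Ctrl (log2 fold change 0.004, adjusted p = 0.976).

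Genes of some regions moved together in these libraries, and 9 of the 34 genes lie in them. On chromosome 11, 670 of the 1180 other genes tested rose and 114 fell, with a median log2 fold change of 0.42, and Aldoc, Eno3, Pdk2, Pgam2 and Slc16a3 lie there, 5 of 5 higher. Between 110 and 140 Mb of chromosome 6, 122 of 212 other genes fell and 20 rose, with a median of -0.58. Slc2a3 fell there, among 9 tested genes within 1 Mb of which 7 also fell (median -1.03). Eno2, Tpi1 and Gapdh share 39 neighbours within 1 Mb, of which 27 fell and 3 rose (median -0.62), while Eno2 rose and the other two were not called. At all other positions 25 of the genes remain, of which 17 rose, 4 fell and 4 were not called, at a median of 0.44, against -0.02 for the 13728 other genes there (3183 higher and 3772 lower). The changes of Pfkp, Pdk1 and Pdk3 exceeded those of each of their tested neighbours, 2 genes around Pfkp (median -0.77), 11 around Pdk1 (0.06) and 12 around Pdk3 (-0.28). Whether the copy number of these regions differs between the cells was not tested, and the part of the regions in the values of the 9 genes was not tested either. Of the genes named below, Tigar, Vhl and Nanog lie in the same segment of chromosome 6, and G6pc3, Shpk and Hand1 on chromosome 11. The part of the regions in their values was likewise not tested.

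**Figure D3:**
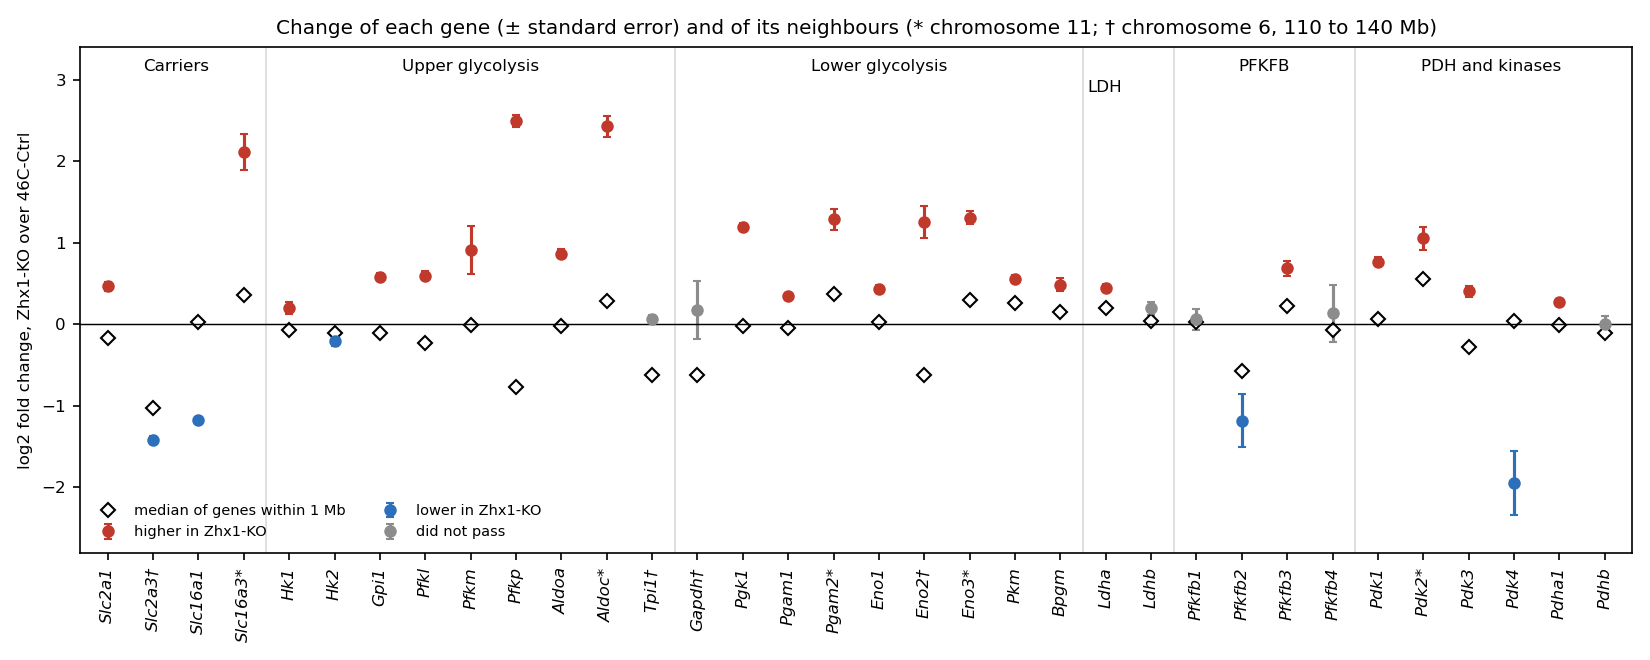
Log2 fold change of Zhx1-KO over 46C-Ctrl for the 34 genes in pathway order, with standard errors, coloured by call, and the median change of tested neighbours within 1 Mb as open diamonds. Asterisks mark the 5 genes of chromosome 11 and daggers the 4 of chromosome 6 between 110 and 140 Mb, where the diamond of Slc2a3 is at -1.03 and that of Eno2, Tpi1 and Gapdh at -0.62.

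The genes around the pathway were described with further lists. Among 17 tested other glucose carriers and glycolytic enzymes, 10 rose, 2 fell and 5 did not pass (median 0.79). Tigar, a phosphatase that lowers fructose 2,6-bisphosphate, fell to 309 ± 13.8 normalized counts in Zhx1-KO, against 701 ± 74.6 in 46C-Ctrl (log2 fold change -1.17, adjusted p = 4.5e-05). Slc2a12, the GLUT12 carrier, rose to 159 ± 22.5 in Zhx1-KO, against 47 ± 9.01 in 46C-Ctrl (log2 fold change 1.74), and Galm, which turns alpha-glucose and beta-glucose into each other, to 236 ± 17.3 in Zhx1-KO, against 101.2 ± 8.21 in 46C-Ctrl (log2 fold change 1.21). Of 3 tested genes of gluconeogenesis 2 rose, Pck2 (log2 fold change 0.68) and G6pc3 (0.76), and Pcx, which makes oxaloacetate from pyruvate, did not pass, with 461, 357 and 502 in Zhx1-KO 1, 2 and 3, against 402, 0 and 337 in 46C-Ctrl 1, 2 and 3. The branches off glycolysis were mixed. In the pentose phosphate pathway 3 of 9 rose, 1 fell and 5 did not pass (median 0.07), led by Shpk (1.83), Taldo1 (0.33) and Tkt (0.21) upward and H6pd (-0.32) downward on the log2 scale.

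In glycogen metabolism 5 of 13 rose, 3 fell and 5 did not pass (median 0.24). The phosphorylases Pygl and Pygm, which release glucose from glycogen, rose with log2 fold changes of 1.92 and 2.86. Pygl averaged 354 ± 4.3 in Zhx1-KO and 93.6 ± 12.9 in 46C-Ctrl, and Ppp1r3c, a phosphatase subunit that favours glycogen synthesis, 296 ± 27.1 in Zhx1-KO and 94.8 ± 15.3 in 46C-Ctrl (log2 fold change 1.64). Pgm2, a phosphopentomutase and phosphoglucomutase, changed by 0.68. Of the 8 tested genes of the rest of the pyruvate dehydrogenase complex and the mitochondrial pyruvate carrier, 1 rose, 3 fell and 4 did not pass (median 0.03). The genes that fell were Pdp1 (-0.99) and Pdp2 (-0.54), the phosphatases that switch pyruvate dehydrogenase on, and the carrier subunit Mpc1 (-1.27), and Pdpr, the regulator of these phosphatases, rose (0.27).

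Genes known to be induced by hypoxia, none of them among the 34, mostly rose. Of 22 such genes 18 rose, 2 fell and 2 did not pass (median 0.75), and their summed normalized counts were 40283 to 41176 in Zhx1-KO and 21963 to 23302 in 46C-Ctrl. Ddit4, an inhibitor of mTORC1, averaged 10623 ± 494 in Zhx1-KO and 3758 ± 299 in 46C-Ctrl (log2 fold change 1.5, adjusted p = 2.87e-06). The mitophagy receptors Bnip3 and Bnip3l rose by 1.25 and 0.80 and Ero1l, an oxidase of disulphide formation, by 0.90 on the log2 scale. Ndrg1 (-0.40) and Bhlhe40 (-0.60), also known as hypoxia-induced and named after their values were seen, fell. The hypoxia-inducible factors and their regulators were split, with 4 of 10 higher, 3 lower and 3 not passing (median -0.08), Egln3 being in both lists. Hif1a, named after its values were seen, averaged 2379 ± 134 in Zhx1-KO and 2525 ± 87.2 in 46C-Ctrl and did not pass (adjusted p = 0.243). Epas1, which encodes HIF2α, fell to 272 ± 14.1 in Zhx1-KO, against 709 ± 82.8 in 46C-Ctrl (log2 fold change -1.38, adjusted p = 2.93e-05). Of the genes that hold HIF low, Vhl, which marks it for degradation, changed by -0.64 and the prolyl hydroxylase Egln2 by -0.62. Egln1 and Egln3, prolyl hydroxylases that are themselves induced by HIF, changed by 0.62 and 0.35. Hif1an, the gene of another inhibitor of HIF, did not pass (-0.08, adjusted p = 0.342). Egln3 and Hif1an were named after their values were seen. HIF protein and oxygen were not measured here.

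Among 7 tested glucose-sensing and Myc factors 3 rose and 4 fell (median -0.58). Txnip, which is induced through MondoA and ChREBP when glucose 6-phosphate is abundant and limits glucose uptake, averaged 5317 ± 157 in Zhx1-KO and 1254 ± 52.1 in 46C-Ctrl (log2 fold change 2.08, adjusted p = 2.76e-07). Its relative Arrdc4 averaged 1176 ± 97.6 in Zhx1-KO and 498 ± 42.8 in 46C-Ctrl (log2 fold change 1.24). Mlxip, which encodes MondoA itself, fell (-0.58), and so did Mycn (-0.64), an activator of glycolytic genes. Mlxipl, which encodes ChREBP and was named after its values were seen, rose (log2 fold change 3.06, adjusted p = 0.0266). Its level was low, at 33.7 ± 11.2 in Zhx1-KO and 6.15 ± 8.25 in 46C-Ctrl.

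**Figure D4:**
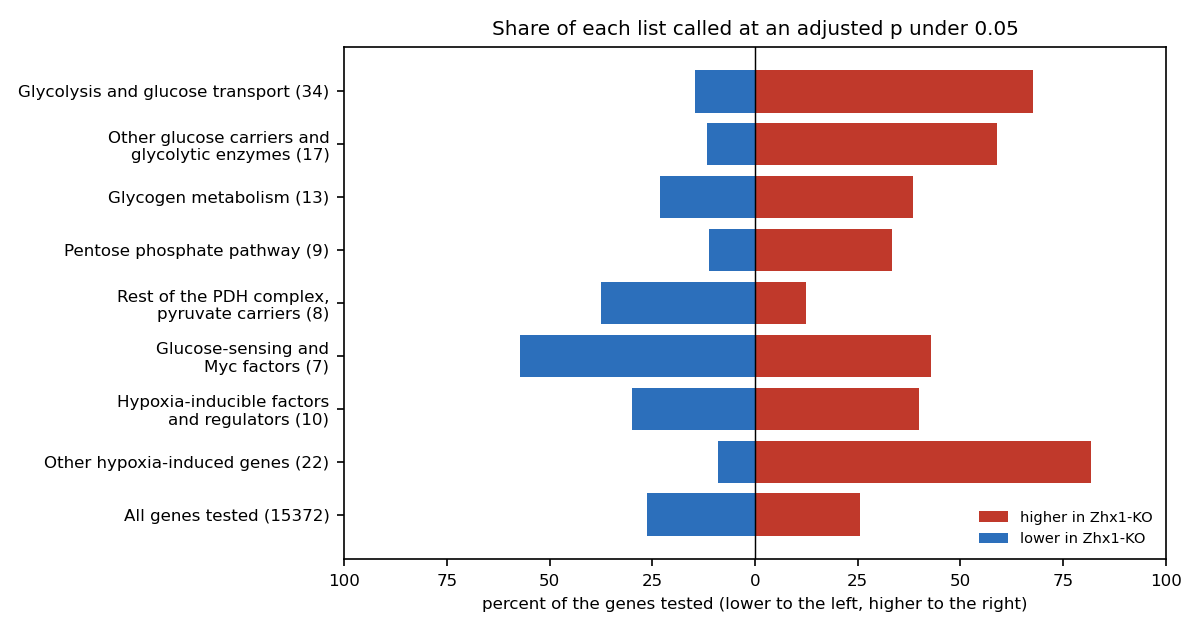
Share of each list, in percent of its tested genes, called at an adjusted p under 0.05, with the genes higher in Zhx1-KO in red to the right and those lower in blue to the left, and the number tested in parentheses. All genes tested stood at 25.6% higher and 26.4% lower, the glycolysis and glucose transport genes at 67.6% and 14.7%, and the hypoxia-induced genes at 81.8% and 9.09%.

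Markers of other cell types differed between the groups as well. Of the 6 CP genes 5 fell, led by Hand1 (-4.87), Tbx5 (-4.48) and Hand2 (-2.52). Tbx5 was low, with means of 1.93 in Zhx1-KO and 62.2 in 46C-Ctrl. The summed normalized counts of the 6 CP genes were 1081 to 1159 in Zhx1-KO and 7770.4 to 8527 in 46C-Ctrl. Each of the 6 was detected in all 46C-Ctrl libraries. Of the 6 neural markers 5 rose, led by Six3 (6.20), and Pax6 was at 0 in each 46C-Ctrl library, but their sums overlapped, at 3094 to 3274 in Zhx1-KO and 2658 to 3163 in 46C-Ctrl. The largest part of these sums was Nes (-0.76), the 1 marker that fell, named after its values were seen. It averaged 1652 in Zhx1-KO and 2804 in 46C-Ctrl. Aldoc and Eno2, the aldolase and enolase of brain, rose beside the 5 higher neural markers. Of the 6 cardiomyocyte markers 4 rose and 1 fell, Tnnt2 (-0.55), which encodes cTNT. Their sums were 8539 to 9336 in Zhx1-KO and 5616 to 6624 in 46C-Ctrl. Myh7 was the largest part of them, with means of 4809 in Zhx1-KO and 3577 in 46C-Ctrl. At a later time, the cardiomyocyte stage, the study reported lower cardiomyocyte markers in Zhx1-KO cells. Of the 2 tested skeletal muscle markers Des rose and Acta1 fell. The sums of the 5 skeletal muscle markers found in the table overlapped, at 813 to 855 in Zhx1-KO and 738 to 852 in 46C-Ctrl. Eno3, Pgam2 and Pfkm are the muscle forms of their steps.

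Endoderm markers fell in 5 of 6, with sums of 7538 to 8560.2 in Zhx1-KO and 25050.5 to 27939.6 in 46C-Ctrl. Most of these sums was Krt8, with means of 7222 in Zhx1-KO and 24023 in 46C-Ctrl. Of the 6 endothelial markers 4 rose and 1 fell, with sums of 4278 to 4482 in Zhx1-KO and 2861 to 3089 in 46C-Ctrl. Of 5 tested pluripotency markers 3 fell, Pou5f1 (-1.78) among them, and 1 rose, Sox2 (1.75). The sums of the 6 listed were 3029 to 3191 in Zhx1-KO and 4865 to 4917 in 46C-Ctrl. The largest part was Sox2 in Zhx1-KO and Pou5f1 in 46C-Ctrl. Sox2 averaged 1985 in Zhx1-KO and 589 in 46C-Ctrl, and Pou5f1 1024 in Zhx1-KO and 3524 in 46C-Ctrl. Slc2a3, the GLUT3 gene known for its high level in pluripotent cells, fell beside Pou5f1. Nanog (-3.87) fell too, and it lies near Slc2a3 in the segment of chromosome 6 described above (chr6:122707489-122714633). The part of these cell types in the values of the 34 genes was not tested.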

How the data were processed

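RNA-seq of 6 libraries of mESC-derived CP cells was used, 3 labelled Zhx1-KO and 3 labelled 46C-Ctrl. According to the methods of the study, the authors trimmed with cutadapt 1.18 and aligned with HISAT2 2.1.0 to GRCm38, with regard to strand. They also quantified genes with StringTie 1.3.4d as FPKM, which is not used here. Cufflinks and DESeq2 are named in the submitters' processing notes. The deposited values are a signal per gene, made by the authors from read counts by dividing each library by its own factor. Their counting program is not given in the sources used. In each library 100% of the values were whole multiples, within 0.01, of a step between 0.880 and 1.05, which gives back whole reads, although the steps of Zhx1-KO 1 and 2 (1.01 each) lie close to 1, so the recovery is less certain there. All columns of the table were used.

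On log2(value + 1), a linear model with group as its only term and a trend in the variance was fitted with limma 3.58.1 (R 4.3.3) to genes whose mean across libraries reached 10, and p-values were adjusted by Benjamini-Hochberg over all 15372 genes tested. Fold changes are on that log2(value + 1) scale, where low genes appear to change less than they do. Alternatives were pseudocounts of 0.5 and 5, no filter, a mean of at least 50, rescaling as in TMM, quantile normalization, no trend in limma, the replicate number as a block, a fold of at least 2, each library left out in turn, the genes outside the regions named, and edgeR 4.0.16 and DESeq2 1.42.0 on the recovered whole reads. The steps were tested on simulated data.

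Named are Zhx1, all 34 genes of the pathway and, of each further list, up to 4 genes with the smallest adjusted p, and exceptions are stated. The 10 largest called changes are given by library, and Slc2a1, Slc16a1, Pfkm and Gapdh were added. The members and lists were chosen with earlier results of these data known. Gene positions and spliced lengths (median of the protein-coding transcripts) are from GENCODE M21 and promoter sequences from RefSeq, both on GRCm38.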

Additional observations from a re-analysis of the deposited data

How the results depend on the processing

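Of the 28 genes of the pathway that were called, 24 kept their call under all 16 alternatives of processing and left-out libraries, 21 as higher and 3 as lower, although Pdk4 was not tested with a mean of at least 50. The others were Hk1, Hk2, Pfkm and Pfkfb2. A fold of at least 2 left 8 of the 34 genes as higher and 4 as lower, 1493 higher and 1207 lower over all genes, and 7 higher and 0 lower among the hypoxia-induced genes, whose alternatives were chosen after seeing the data. With 1 library left out, 3 to 5 of the 34 genes were lower and 21 to 23 higher. Pfkm was not called without trend (adjusted p = 0.0811) or by DESeq2 (0.056). On recovered reads edgeR called 3976 genes as higher and 3954 as lower, DESeq2 3717 and 3881.

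Quantile normalization turned the log2 fold changes of Tpi1 (-0.082), Pfkfb1 (-0.0056) and Pfkfb4 (-0.052), none of them called. Leaving out 1 library moved Gapdh between -0.30 and 0.50, Pfkfb1 between -0.028 and 0.11, Pfkfb4 between -0.13 and 0.45 and Pdhb between -0.072 and 0.098, again without a call, and the cause was not tested.

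Same-numbered libraries of the groups showed little common deviation (correlations 0.0042, -0.069 and 6e-04). With 3 libraries in each group, these values cannot decide whether the numbers pair the libraries. With a replicate block 23 of the 34 genes were higher and 5 lower, and 3625 and 3749 of all genes. The block ended the call of Hk1 (adjusted p = 0.0937) and brought Ldhb past the threshold (0.0441).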
